A study of Mus musculus with 12 samples.

Results

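The genes described here are 34 genes of the endoplasmic reticulum (ER) chaperone system and the unfolded protein response, taken by symbol from the 24391 symbols measured in scraped mouse colon epithelium. All 34 were found. They comprise 9 ER chaperones and co-chaperones, 4 protein disulfide isomerases, 2 secreted ER factors, 6 sensors or transcription factors, 4 targets or feedback genes of the PERK and ATF4 branch, 7 genes of ER-associated degradation and 2 translocon subunits.

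Proteins bound for the cell surface, the secretory granules or the gut lumen enter the ER through the Sec61 channel and are folded there by chaperones, lectins and disulfide isomerases. When folding falls behind, the sensors IRE1 (Ern1, and in gut epithelium also Ern2), PERK and ATF6 signal through XBP1, ATF4 and cleaved ATF6 to raise chaperones and degradation genes, and to slow translation. Mucus-secreting goblet cells of the colon depend on this system, since mucin is large and rich in disulfide bonds.

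RNA of colon epithelial cells from C57BL/6 mice aged 18 weeks was sequenced in 12 libraries, 4 in each of 3 groups. The groups were control mice, mice labelled AOM and DSS induced (AOM/DSS below), and mice labelled AOM and DSS induced plus curcumin (curcumin below). AOM, azoxymethane, is a colon carcinogen, DSS, dextran sulfate sodium, is a polymer that inflames the colon, and curcumin is a polyphenol of turmeric. No genotype beyond the strain was labelled, and doses and schedules were not given in the sources used here. Curcumin was given on top of AOM and DSS, and curcumin without them was not analysed here. Tumours of the right portion of the colon had been taken out before scraping, so the cells were those of the tissue left behind. Bulk libraries were measured, in which fewer cells of a type and less RNA per cell cannot be told apart. Nothing labels the libraries as separate animals, so the p-values measure the spread between these samples, which may be technical.

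Reads assigned to genes, recovered from the deposited values, totalled 5567988 to 15968416 per library. The summed FPKM (reads per length of gene and per depth of the library) of 8 epithelial markers was 5406 to 9511, while the lists for T and NK cells, neutrophils, fibroblasts, smooth muscle and endothelium each summed to at most 23.1, macrophage and dendritic cell markers to at most 64.1, and red blood cell markers to 22.5 to 473. The libraries were divided into 2 kinds by a sign. Deviations from the mean of all libraries rose with gene GC content in 5 libraries, called GC-rich (control replicate 0 and replicates 0 and 1 of both other groups). They fell with it in 7, called AT-rich. The correlations were 0.222 to 0.485 in the first and -0.407 to -0.123 in the second. Deviations from a common mean must hold both signs, so the division is a rule and not a finding. No pair of libraries of 1 group agreed within sampling noise.

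The promoters of the chaperone genes carry the sequence elements by which the pathway is known. RefSeq promoters of build GRCm38.p6, from 250 bases before to 50 bases after the start, matched 28 of the 34 members; Hyou1, Manf, Ern2, Atf6, Derl1 and Sec61a1 had no entry. Exact matches were sought on both strands. The ER stress response element (ERSE), CCAAT and CCACG with 9 free bases between them, the element of NF-Y and ATF6, was present in 9 of the 28, and in 39 of all 32851 promoters (0.119%). These sites are shown because 7 of the 9 carriers are folding genes, although 6 of the 13 folding members with a promoter entry lack the element. Each line runs 5′ to 3′ on the gene's strand, with the element in capitals, and reads CGTGG first where the element lies on the opposite strand.
Hspa5, chr2:34772019-34772049, + strand: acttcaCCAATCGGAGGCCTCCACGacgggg
Hsp90b1, upstream site, chr10:86705632-86705662, - strand: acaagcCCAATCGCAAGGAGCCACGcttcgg
Hsp90b1, downstream site, chr10:86705527-86705557, - strand: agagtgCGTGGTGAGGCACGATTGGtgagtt
Calr, chr8:84847069-84847099, - strand: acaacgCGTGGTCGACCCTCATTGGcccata
Canx, chr11:50325794-50325824, - strand: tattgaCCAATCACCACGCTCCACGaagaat
Dnajc3, chr14:118937821-118937851, + strand: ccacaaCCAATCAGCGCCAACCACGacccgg
Pdia6, chr12:17266485-17266515, + strand: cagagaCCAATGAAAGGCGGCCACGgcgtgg
Creld2, chr15:88819514-88819544, + strand: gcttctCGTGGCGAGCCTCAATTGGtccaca
Syvn1, chr19:6046526-6046556, + strand: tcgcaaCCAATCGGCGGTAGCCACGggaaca
Derl3, chr10:75893236-75893266, + strand: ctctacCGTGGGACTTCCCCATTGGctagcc
The Hspa5 site lay 65 bases before the start. The 250 bases before the start of Hspa5 (chr2:34771840-34772089, + strand), the gene of the master chaperone BiP, are shown to give that element its setting.
Hspa5 promoter: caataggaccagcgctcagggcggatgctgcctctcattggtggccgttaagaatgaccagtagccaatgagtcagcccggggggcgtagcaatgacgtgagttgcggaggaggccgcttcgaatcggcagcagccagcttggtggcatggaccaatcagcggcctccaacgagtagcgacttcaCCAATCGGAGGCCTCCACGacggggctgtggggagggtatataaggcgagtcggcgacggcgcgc

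A related element, ERSE-II (ATTGG and CCACG with 1 free base between), was found in Dnajb11 and Herpud1, against 12 of all promoters (0.0365%). The UPR element, sought only as TGACGTGG, was in 0 of the 28 and in 0.676% of all promoters. The printed Hspa5 stretch holds TGACGTGA, which differs in the last base and was not sought, so other forms of the element are not counted. The C/EBP-ATF response element (CARE, TGATGNAA), through which ATF4 acts, was in Trib3, Asns, Chac1 and Herpud1, and in 3.97% of all promoters. The elements of Herpud1 and Asns are shown because these 2 genes were among the members with the widest group differences.
Herpud1, ERSE-II, chr8:94386371-94386393, + strand: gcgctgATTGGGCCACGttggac
Herpud1, CARE on the opposite strand, chr8:94386311-94386330, + strand: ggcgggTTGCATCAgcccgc
Asns, CARE, chr6:7693219-7693238, - strand: gccacaTGATGAAActtccc
A match describes these letters in this window and is not evidence of binding.

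Levels of the members in control epithelium covered a wide range on the FPKM scale, which is per length and so allows genes to be compared. Calr, the calcium-binding lectin chaperone calreticulin, was highest at 316 ± 82.8 FPKM (SD, n = 4), followed by the disulfide isomerases Pdia3 at 241 ± 45.3 and P4hb at 240.0 ± 28.4, Hsp90b1 (GRP94) at 203 ± 71.3 and Hspa5 at 164 ± 60.8. These SDs are of each gene over libraries and not of the differences between genes, and the order was not tested. Calr was above Pdia3 in every control library, whereas the neighbours after it changed order between control libraries. The sensors were far lower, at 13.4 ± 2.26 FPKM for Atf6, 15.8 ± 6.04 for Ern2 and 8.15 ± 2.47 for Ern1, whereas the factors Xbp1 (83.4 ± 11.6) and Atf4 (73.9 ± 5.78) stood among the more abundant members. The stress-induced genes Chac1, which breaks down glutathione, and Trib3, a pseudokinase that dampens the ATF4 branch, were at 0.242 ± 0.123 and 0.118 ± 0.0514 FPKM, close to absent.

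Group differences were tested on log2(FPKM + 1) with limma over the 12052 genes with at least 1 FPKM in 4 or more libraries, and differences below are on that scale. Of the 34 members 31 were tested, and Trib3, Chac1 and Derl3 were below the filter. No member passed an adjusted p of 0.05 in any of the 3 comparisons, and none did under any of the 13 other settings and 12 left-out libraries tried. The half-width of the 95% interval ran from 0.23 for Sel1l to 0.73 for Sec61b, with a median of 0.44 over the 31 members, so smaller differences could not be resolved.

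**Figure D1:**
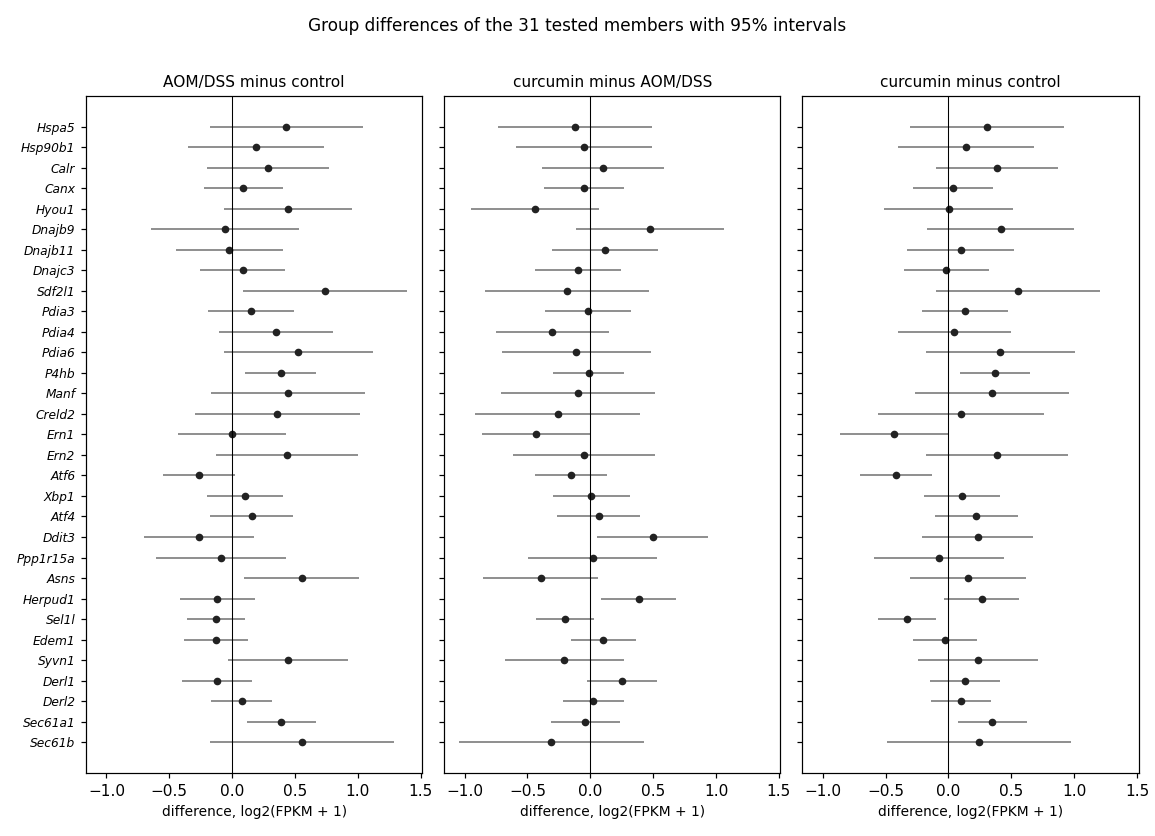
Difference on the log2(FPKM + 1) scale (horizontal axis) for the 31 tested members (rows) in the 3 comparisons (panels), as points with 95% intervals from limma; the vertical line marks 0. Most folding genes lie right of 0 in AOM/DSS minus control, with Sdf2l1 farthest at 0.74, and the intervals of most members include 0 in every panel.

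In AOM/DSS against control, the question is whether carcinogen and colitis moved the folding machinery of the epithelium. Of the folding genes 13 of 15 were higher in mean in AOM/DSS, against 3 of 6 sensors and transcription factors and 2 of 6 degradation genes. In all, 0 of 31 members passed the adjusted threshold in limma, against 1.27% of all genes tested. At an unadjusted p below 0.05, 4 members were higher (Sdf2l1, P4hb, Asns and Sec61a1) and 0 lower, which is 12.9% of the members against 13.5% of all genes. With limma voom on the recovered reads the counts were 0 adjusted (1.41% of all genes) and the same 4 unadjusted (12.9% of all genes). The median difference of the 31 members was 0.16, against 0.015 over all genes, and 21 of 31 were higher in mean, against 52.8% of all genes. The members' median was 0.099 without control replicate 0 and 0.26 without control replicate 2.

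Sdf2l1, an ER-resident partner of the BiP co-chaperones, had the largest difference of the members. Its FPKM were 13.5, 19.6, 22.1 and 14.2 in control replicates 0 to 3, 32.2, 49.3, 17.5 and 25.3 in AOM/DSS, and 42.2, 24.9, 19.6 and 19.8 in curcumin. AOM/DSS replicate 2 lay inside the control range and the other AOM/DSS libraries above it. The difference from control was 0.74 ± 0.30 (SE) in AOM/DSS (adjusted p = 0.295, limma) and 0.55 ± 0.30 in curcumin (adjusted p = 0.487). In GC-rich libraries alone the AOM/DSS difference was 1.49, and in AT-rich libraries alone it was 0.19.

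Hspa5, the BiP chaperone that holds the sensors inactive, was not among the extremes and is given as the central gene of the pathway. Its FPKM were 106, 212, 221 and 118 in control, 258, 274, 129 and 213 in AOM/DSS, and 256, 168, 174 and 186 in curcumin. The groups overlapped throughout, and libraries of 1 group differed by up to 2.12-fold (AOM/DSS), more than the group means. The AOM/DSS difference was 0.43 with a 95% interval from -0.18 to 1.04 (adjusted p = 0.552, limma), 1.32 among GC-rich libraries and -0.091 among AT-rich ones.

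Hyou1 (GRP170), which recharges BiP with nucleotide, was 17.2, 25.8, 29.0 and 17.6 FPKM in control, 41.3, 39.0, 18.2 and 27.5 in AOM/DSS, and 24.8, 21.6, 19.8 and 21.6 in curcumin. Both GC-rich AOM/DSS libraries were above all others and the other pair lay within the control range. The difference was 0.44 ± 0.24 in AOM/DSS against control (adjusted p = 0.448, limma) and -0.44 ± 0.24 in curcumin against AOM/DSS (adjusted p = 0.422), the lowest of the members in that comparison. The second value was -0.77 in GC-rich and -0.11 in AT-rich libraries.

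The other chaperones showed smaller differences in AOM/DSS. Calr differed by 0.29, Hsp90b1 by 0.19, the lectin chaperone Canx by 0.089 and the co-chaperone Dnajc3 by 0.082. Dnajb11, which hands clients to BiP, and Dnajb9, which also restrains IRE1, were slightly lower in mean, with differences of -0.022 and -0.057. Over the 9 chaperones the median was 0.19, with 7 higher in mean.

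All 4 disulfide isomerases were higher in mean in AOM/DSS, with a median difference of 0.37. P4hb, the classical isomerase and a subunit of collagen prolyl hydroxylase, was 221, 271, 256 and 211 FPKM in control, 319, 360, 262 and 315 in AOM/DSS, and 343, 305, 300.3 and 291 in curcumin. Every curcumin library exceeded every control library, and AOM/DSS replicate 2 alone of its group fell within the control range. The difference from control was 0.38 ± 0.13 in AOM/DSS (adjusted p = 0.200, limma) and 0.37 ± 0.13 in curcumin (adjusted p = 0.271). It kept its direction in both kinds of library, at 0.61 and 0.23 in AOM/DSS and 0.54 and 0.27 in curcumin (GC-rich, then AT-rich).

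Pdia6, which also attenuates IRE1, was 51.4, 67.8, 106 and 43.3 FPKM in control, 101, 134, 57.9 and 89.0 in AOM/DSS, and 92.0, 70.5, 83.8 and 93.9 in curcumin. Control replicate 2 lay above 3 of the 4 AOM/DSS libraries. The AOM/DSS difference was 0.53 ± 0.27 (adjusted p = 0.435, limma), and that of curcumin against control was 0.41 ± 0.27 (adjusted p = 0.570). The first was 1.17 in GC-rich and 0.084 in AT-rich libraries. Pdia4 differed by 0.35 and Pdia3 by 0.15 in AOM/DSS. The secreted factors Manf, which protects cells under ER stress, and Creld2 differed by 0.44 and 0.36. In GC-rich libraries alone the AOM/DSS differences were 0.91 (Pdia4), 0.46 (Pdia3), 1.34 (Manf) and 1.15 (Creld2). In AT-rich ones they were 0.011, -0.036, -0.076 and -0.22 in the same order.

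**Figure D2:**
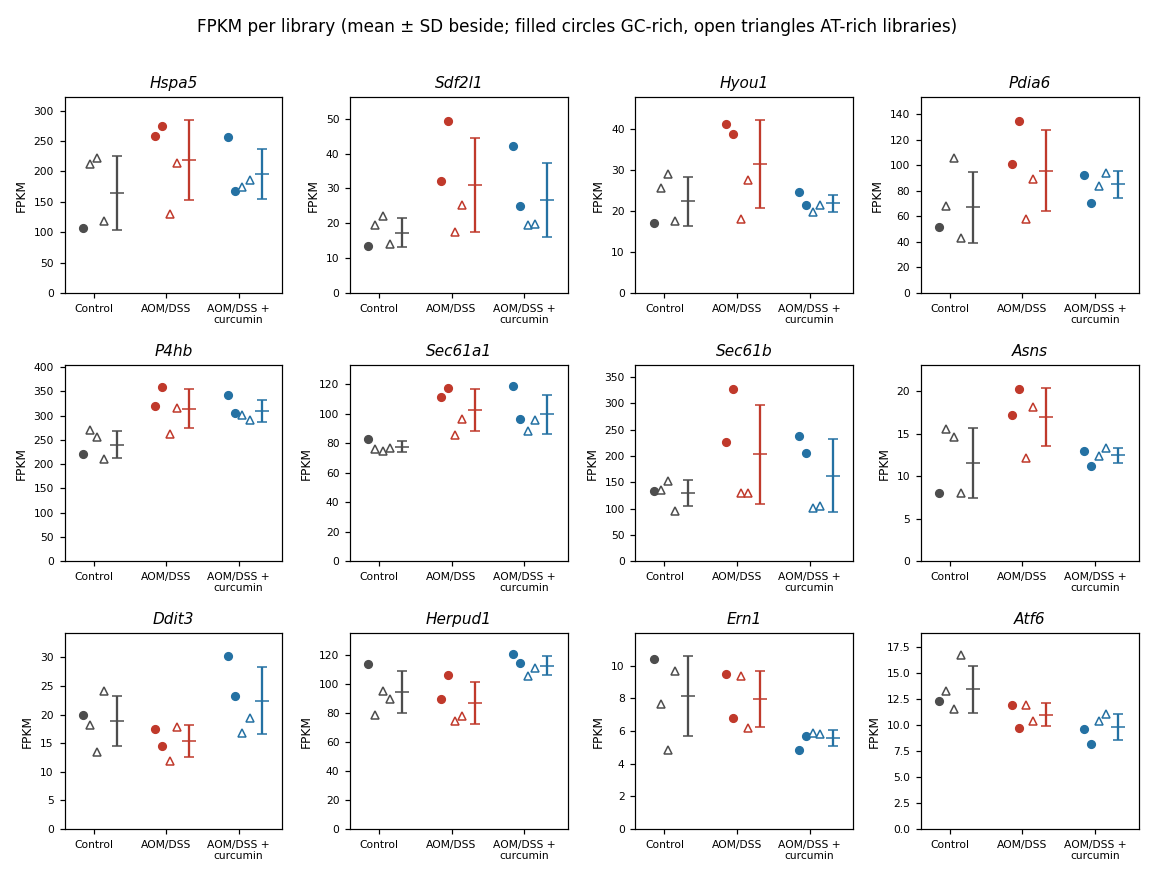
FPKM (vertical axis, from 0) of 12 members in each library by group, with the group mean ± SD (n = 4) beside the points; filled circles are GC-rich and open triangles AT-rich libraries. Sec61a1 is the gene whose 4 AOM/DSS libraries all lie above the 4 control libraries, Sdf2l1 and Sec61b are high mainly in GC-rich libraries of the treated groups, and Hyou1 is high in the GC-rich AOM/DSS libraries.

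The translocon gave the sole member whose AOM/DSS and control ranges did not overlap, 1 of 31 (3.23%) against 6.02% of all genes. Sec61a1, the pore subunit, was 82.8, 76.0, 74.9 and 76.5 FPKM in control, 111, 117, 85.8 and 96.3 in AOM/DSS, and 119, 96.1, 88.0 and 95.8 in curcumin. All 8 treated libraries were above all 4 controls. The difference was 0.39 ± 0.13 in AOM/DSS (adjusted p = 0.178, limma) and 0.35 ± 0.13 in curcumin (adjusted p = 0.293), with 0.46 and 0.36 in GC-rich and 0.26 and 0.27 in AT-rich libraries. In a later-build annotation 17.3% of its exon bases overlap a gene on the opposite strand, Gm44170, and the strand setting of the counting is not given, so reads of the pair may be mixed.

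Sec61b, the small beta subunit, differed by library kind in both treated groups but not in control. Its FPKM were 134, 135, 153 and 95.05 in control, 227, 327, 129 and 129 in AOM/DSS, and 238, 206, 102 and 104 in curcumin. The GC-rich libraries of both treated groups were above all controls, and the AT-rich ones lay within the control range. The AOM/DSS difference was 0.56 ± 0.34 over all libraries (adjusted p = 0.519, limma), 1.02 among GC-rich and 0.041 among AT-rich libraries.

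Of the PERK and ATF4 branch, Asns, asparagine synthetase and a classical ATF4 target, was 8.02, 15.5, 14.6 and 8.02 FPKM in control, 17.2, 20.2, 12.2 and 18.1 in AOM/DSS, and 12.9, 11.2, 12.4 and 13.3 in curcumin. AOM/DSS replicate 2 again lay within the control range, and the curcumin libraries were close together and inside it. The difference was 0.55 ± 0.21 in AOM/DSS (adjusted p = 0.266, limma) and -0.40 ± 0.21 in curcumin against AOM/DSS (adjusted p = 0.422). The first was 1.12 in GC-rich and 0.26 in AT-rich libraries. Atf4 itself differed by 0.16 in AOM/DSS, and Ppp1r15a (GADD34), which reverses the translation block, by -0.092.

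The sensors and the degradation genes did not share the upward direction. Ern2, the IRE1 form of mucus-secreting epithelium, was higher in mean in AOM/DSS by 0.44 ± 0.26 (adjusted p = 0.508, limma) and Xbp1 by 0.10, while Ern1 differed by -0.0050. Of 6 tested degradation genes 4 were lower in mean, Herpud1, Sel1l, Edem1 and Derl1, with differences of -0.12 to -0.13. The ubiquitin ligase Syvn1 (HRD1) differed by 0.44 ± 0.22 (adjusted p = 0.41, limma), and Derl2 by 0.076. Syvn1 was 10.83 to 15.3 FPKM in control, and 26.2, 18.3, 12.45 and 13.7 in AOM/DSS replicates 0 to 3. AOM/DSS replicates 2 and 3 thus lay within the control range. Its difference was 0.49 in GC-rich and 0.19 in AT-rich libraries.

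In curcumin against AOM/DSS, which asks whether curcumin shifted these genes in treated mice, 0 of 31 members passed the adjusted threshold in limma, against 1.08% of all genes. Unadjusted p below 0.05 was reached by 3 members, Ddit3 and Herpud1 higher and Ern1 lower (9.68%, against 14.5% of all genes). With voom the counts were 0 adjusted (1.19% of all genes) and 1 unadjusted, Herpud1 (14.2% of all genes). The median difference of the members was -0.050, against -0.0054 for all genes, and 20 of 31 were lower in mean, against 50.9%. The members' median ran from -0.135 without curcumin replicate 0 to 0.048 without AOM/DSS replicate 1.

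Ddit3 encodes CHOP, the death-promoting factor at the end of the PERK branch. Its FPKM were 19.9, 18.1, 13.4 and 24.1 in control, 17.6, 14.6, 11.8 and 17.8 in AOM/DSS, and 30.2, 23.3, 16.7 and 19.4 in curcumin. Curcumin replicate 2 fell within the AOM/DSS range and the others lay above it, and the control range overlapped both. The difference was 0.50 ± 0.20 (adjusted p = 0.279, limma), 0.69 in GC-rich and 0.30 in AT-rich libraries, and against control it was -0.26 in AOM/DSS and 0.23 in curcumin. Mars overlaps 7.6% of its exon bases on the opposite strand.

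Herpud1, a scaffold of the degradation complex and carrier of both printed elements, was 114, 79.0, 95.6 and 89.7 FPKM in control, 89.7, 106, 74.5 and 77.9 in AOM/DSS, and 121, 115, 106 and 111 in curcumin. AOM/DSS replicate 1 was just above the lowest curcumin library and the other 3 were below all 4. The difference was 0.38 ± 0.14 (adjusted p = 0.217, limma), 0.27 in GC-rich and 0.50 in AT-rich libraries. With a covariate for library kind its adjusted p was 0.0707, the lowest of a member in this comparison under any setting.

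Dnajb9, an XBP1-dependent co-chaperone, followed an order of its own. It measured 17.3, 28.0, 24.0 and 31.1 FPKM in control, 21.8, 14.3, 27.4 and 35.7 in AOM/DSS, and 28.6, 23.7, 39.4 and 44.8 in curcumin. Both AT-rich curcumin libraries were above every other library, and AOM/DSS replicate 1, highest of its group for most folding genes, was the lowest of all 12. The difference was 0.47 ± 0.27 against AOM/DSS (adjusted p = 0.459, limma) and 0.42 ± 0.27 against control (adjusted p = 0.566).

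Ern1 was the sole member whose curcumin and AOM/DSS ranges did not overlap, 1 of 31 (3.23%) against 9.22% of all genes. The sensor was 10.4, 7.68, 4.87 and 9.65 FPKM in control, 9.48, 6.78, 9.38 and 6.20 in AOM/DSS, and 4.86, 5.72, 5.88 and 5.85 in curcumin. The 4 curcumin libraries were low and close together, and control replicate 2 was as low as they were. The difference was -0.43 ± 0.20 against AOM/DSS (adjusted p = 0.346, limma) and -0.43 ± 0.20 against control (adjusted p = 0.405). It was -0.53 in GC-rich and -0.33 in AT-rich libraries against AOM/DSS.

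In curcumin against control the adjusted threshold was passed by 0 of 31 members in limma, against 0.141% of all genes, and by 0 with voom, against 0.224%. At an unadjusted p below 0.05 limma gave P4hb and Sec61a1 higher and Ern1, Atf6 and Sel1l lower, 5 of 31 (16.1%, against 12.2% of all genes), and voom gave 4, all of these but Ern1 (11.1% of all genes). Ranges did not overlap for 4 of 31 (12.9%), P4hb and Sec61a1 above and Atf6 and Sel1l below, against 8.26% of all genes. This comparison and the one of AOM/DSS with control share the control libraries. The median difference was 0.14, against 0.014 for all genes, and 25 of 31 members were higher in mean, against 52.5%. The members' median was 0.066 without control replicate 0, 0.083 without curcumin replicate 0 and 0.22 without control replicate 2.

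Atf6, the sensor that is cut in the Golgi to release a transcription factor, was 12.3, 13.3, 11.6 and 16.6 FPKM in control, 11.9, 9.71, 11.9 and 10.4 in AOM/DSS, and 9.58, 8.16, 10.3 and 11.03 in curcumin. Every curcumin library was below every control, with AOM/DSS between and overlapping both. The difference was -0.42 ± 0.13 in curcumin (adjusted p = 0.228, limma) and -0.26 ± 0.13 in AOM/DSS (adjusted p = 0.425). In curcumin it was -0.43 in GC-rich and -0.33 in AT-rich libraries.

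Sel1l, the adaptor that holds the ligase Syvn1 to its substrates, was 20.8, 20.03, 20.3 and 23.1 FPKM in control, 21.0, 17.4, 19.04 and 19.1 in AOM/DSS, and 15.9, 14.3, 17.6 and 18.4 in curcumin. Its spread was the smallest of the members, and the curcumin libraries were all below the controls. The difference was -0.33 ± 0.11 in curcumin (adjusted p = 0.234, limma) and -0.13 ± 0.11 in AOM/DSS (adjusted p = 0.641), with -0.44 in GC-rich and -0.22 in AT-rich libraries of curcumin.

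The 3 members under the filter had few reads. Derl3, a derlin of secretory cells, had 48 reads (3.84 FPKM) in curcumin replicate 0 and at most 17 reads (0.839 FPKM or less) in each of the other libraries. Chac1 had 1 to 8 reads per control library, 2 to 17 in AOM/DSS and 9 to 20 in curcumin. Trib3 had at most 15 reads in a library and 0 in curcumin replicate 2. Tested without a filter none passed, and the smallest adjusted p was 0.463 for Chac1 in curcumin against control, with a difference of 0.42 ± 0.18.

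The order of libraries within a group was alike for most folding genes. Of the 15 folding members (chaperones, isomerases, Manf and Creld2), all 15 had control replicate 0 among the lower pair of their group, and 13 had control replicate 2 as the highest control. In AOM/DSS, replicate 1 was highest for 11 and replicate 2 lowest for 13. In curcumin, replicate 0 was highest for 10 and replicate 1 lowest for 11. Of the 16 other tested members, 8 had control replicate 0 in the lower pair and 3 had control replicate 2 highest, 8 had AOM/DSS replicate 1 highest and 8 had replicate 2 lowest, and 10 had curcumin replicate 0 highest and 7 had replicate 1 lowest. These genes were measured in the same libraries, so the counts describe the libraries and are not independent observations.

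Their median deviation from the 12-library mean was -0.48, 0.0010, 0.26 and -0.43 in control replicates 0 to 3. In AOM/DSS it was 0.17, 0.57, -0.31 and 0.14, and in curcumin 0.27, -0.17, 0.078 and 0.093. Over all genes tested the same median stayed between -0.012 and 0.0080. The range within control, and that within AOM/DSS, was wider than the median group difference of the folding members, 0.35 in AOM/DSS against control. The median SD within groups was 0.38 for the folding members, 0.20 for the 16 other tested members and 0.23 for 7662 genes at or above the lowest member's mean.

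**Figure D3:**
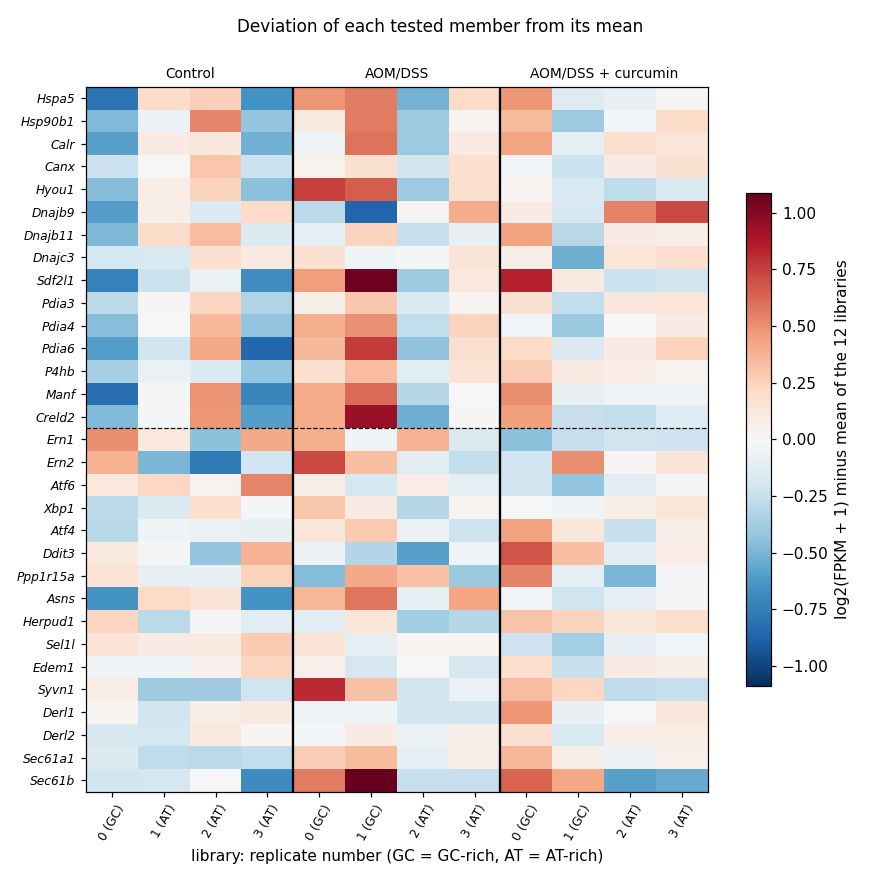
Deviation of log2(FPKM + 1) from the mean of the 12 libraries (colour, red above and blue below) for the 31 tested members (rows) in each library (columns, by group and replicate, with GC-rich or AT-rich in brackets); the dashed line divides the 15 folding members from the 16 others. Most folding members, though not Dnajb9 or Dnajc3, are low in control replicates 0 and 3 and AOM/DSS replicate 2 and high in AOM/DSS replicate 1, and the other members show less of a shared pattern.

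The direction of the AOM/DSS difference differed between the kinds of library. Among GC-rich libraries, 2 AOM/DSS against 1 control, all 15 folding members were higher in mean, with a median of 0.86, and the sole control was the library found in the lower pair of its group for all 15. Among AT-rich libraries, 2 against 3, 6 of 15 were higher, with a median of -0.036. For curcumin against AOM/DSS the medians were -0.30 (GC-rich) and 0.11 (AT-rich), with 1 and 13 of 15 higher. For curcumin against control they were 0.56 and 0.10. A covariate for library kind, fitted over all 12 libraries, assumes the same shift in every group. With it the median of the 31 tested members was 0.160 in AOM/DSS against control, against 0.156 without it. The median was -0.050 with and without it for curcumin against AOM/DSS, and 0.118 and 0.136 for curcumin against control. The part of library kind itself in the differences was not tested.

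The 8 tested members with an exact ERSE had a median difference of 0.32 in AOM/DSS against control, with all 8 higher in mean, -0.11 in curcumin against AOM/DSS, with 1 higher, and 0.19 in curcumin against control, with 7 higher. The 17 tested members with a promoter but no ERSE had medians of 0.076, 0.0090 and 0.13 in the same order, with 9, 9 and 13 higher. Of all 12052 genes tested, 6363, 5915 and 6326 were higher in mean in these comparisons. The 17 also hold sensors and degradation genes. The 6 folding members among them differed in AOM/DSS by 0.74 (Sdf2l1), 0.385 (P4hb), 0.35 (Pdia4) and 0.15 (Pdia3), and by -0.022 (Dnajb11) and -0.057 (Dnajb9). The shared direction of the 8 ERSE members did not hold in AT-rich libraries alone. There the AOM/DSS differences were -0.091 (Hspa5), -0.193 (Hsp90b1), -0.046 (Calr), -0.028 (Canx) and -0.216 (Creld2). They were 0.023 for Dnajc3, 0.084 for Pdia6 and 0.192 for Syvn1. The part of the element in the differences was not tested. Per library, the ERSE members deviated by -0.48 in control replicate 0 and 0.57 in AOM/DSS replicate 1, the same ends as the folding members, with which they share 7 genes.

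Markers of single cell types were summed in each library, with calls from limma. The summed FPKM of 10 goblet cell markers was 4527 to 6051 in control, 5606 to 8302 in AOM/DSS and 7100 to 8925 in curcumin, all curcumin libraries above all controls, with 1 of the 10 past the threshold in AOM/DSS against control; 2 of the 10, Agr2 and Creb3l1, also stand in the pathway lists below. The highest goblet sums in AOM/DSS and curcumin were in replicates 1 and 0, the libraries with the highest folding deviations, whereas in control the highest was replicate 1 and not replicate 2. Plasma and B cell markers, 11 of 12 of them in the files, summed to 104 to 160.0 in control, 121 to 224 in AOM/DSS and 96.6 to 166 in curcumin. In control replicate 3 the sum was 119, with the plasma cell genes Jchain at 0.383, Mzb1 at 0.444 and Tnfrsf17 at 0 FPKM, so other genes made it up. Mean FPKM in control, AOM/DSS and curcumin was 7.24, 17.6 and 2.62 for Jchain and 1.07, 2.50 and 0.796 for Mzb1. Jchain was at 53.0 FPKM in AOM/DSS replicate 3 and at most 17.5 elsewhere. The groups overlapped and no marker of this list passed. The 8 colonocyte markers summed to 4440 to 10530 in control, 3840 to 6013 in AOM/DSS and 6692 to 10410 in curcumin, with 3 past the threshold in AOM/DSS against control, 4 in curcumin against AOM/DSS and 0 in curcumin against control. The 6 enteroendocrine markers summed to 54.7 to 174.5 in control, 57.5 to 201 in AOM/DSS and 165 to 324 in curcumin, and none passed. The part of these cell types in the members' differences was not tested.

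Other genes of the pathway were taken as 6 lists, and 4 genes passed the threshold. In AOM/DSS against control these were 1 of 18 genes of ER to Golgi transport (Kdelr3, higher), 1 of 31 further ATF4 and amino acid response targets (Stc2, higher) and 1 of 19 further sensors and regulators (Crebrf, lower). None of 29 further folding and oxidation genes, 21 further degradation genes and 23 further translocon, signal peptidase and oligosaccharyl transferase genes passed (limma, adjusted p), with 9, 1 and 4 higher and 0 lower at an unadjusted p below 0.05. Unadjusted counts were 2 higher and 0 lower for transport, 9 and 1 for the ATF4 targets, and 1 and 2 for sensors and regulators. Over all genes tested, 1.27% passed the adjusted threshold and 13.5% the unadjusted one. With voom 0 of the folding, degradation and translocon genes passed, with 10, 2 and 8 higher unadjusted. Nupr1 of the ATF4 targets joined the same 3 calls of the other lists. The voom shares over all genes were 1.41% adjusted and 12.9% unadjusted. List medians were 0.34 for the ATF4 targets, 29 of 31 of them higher in mean, 0.21 for folding and oxidation, 0.20 for the translocon group, 0.13 for sensors and regulators, 0.098 for transport and 0.033 for degradation, against 0.015 and 52.8% higher in mean over all genes.

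Kdelr3, a receptor that returns escaped ER proteins from the Golgi, was 4.54, 4.60, 8.12 and 3.64 FPKM in control, 20.5, 12.7, 8.82 and 13.4 in AOM/DSS, and 10.4, 10.4, 14.6 and 14.8 in curcumin. All 8 treated libraries were above all controls. It rose in AOM/DSS by 1.25 ± 0.25 (adjusted p = 0.0305, limma), and in curcumin the difference from control was 1.15 ± 0.25 (adjusted p = 0.0942). The first call was lost when any of control replicates 0, 1 and 3 or AOM/DSS replicates 0 and 3 was left out, with adjusted p of up to 0.119. It was also lost with no filter, with the replicate block, with the 2 groups fitted alone and in each kind of library alone, with adjusted p of up to 0.344.

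Stc2, a secreted glycoprotein induced through the PERK branch, was 4.01, 4.83, 3.20 and 4.53 FPKM in control, 7.67, 8.42, 9.09 and 8.89 in AOM/DSS, and 12.5, 5.94, 6.16 and 9.24 in curcumin. The treated libraries were again all above the controls. Stc2 rose in AOM/DSS by 0.90 ± 0.19 (adjusted p = 0.0457, limma), a call lost for 10 of the 12 left-out libraries, with adjusted p of up to 0.119. It was also lost with no filter, with quantile scaling, with the replicate block and in each kind of library alone, with adjusted p of up to 0.653.

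Crebrf, a regulator named for its binding of the ER-anchored factor CREB3, was 13.3, 13.0, 10.7 and 16.7 FPKM in control, 5.58, 7.31, 8.19 and 8.72 in AOM/DSS, and 8.03, 7.71, 7.98 and 9.26 in curcumin. All treated libraries were below all controls. Crebrf fell by 0.77 ± 0.15 in AOM/DSS (adjusted p = 0.0282, limma), and the call was lost without control replicates 0, 1 or 3 or AOM/DSS replicate 0, with adjusted p of up to 0.105. It was also lost with a common sum (adjusted p = 0.0675), with the 2 groups fitted alone (0.102) and in GC-rich (0.466) or AT-rich (0.287) libraries alone.

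In curcumin against AOM/DSS 1 of the 141 tested genes in the 6 lists passed in limma, against 1.08% of all genes. Unadjusted, 4 were higher and 11 lower (14.5% of all genes, either direction). With voom 1 passed (1.19% of all genes), with 4 higher and 8 lower unadjusted (14.2%). List medians ran from -0.15 for the ATF4 targets, 6 of 31 of them higher in mean, to -0.015 for folding and oxidation. Over all genes the median was -0.0054, with 5915 of 12052 higher in mean. The sole call was Creb3l3, an ER-anchored factor cut in the Golgi as ATF6 is, and known from liver and intestine. It was 1.66, 2.50, 1.23 and 3.35 FPKM in control, 0.759, 3.94, 2.90 and 5.46 in AOM/DSS, and 23.9, 6.10, 13.3 and 15.4 in curcumin. Each curcumin library exceeded all 8 others. The rise was 1.89 ± 0.41 (adjusted p = 0.0487, limma), lost for 10 of the 12 left-out libraries with adjusted p of up to 0.14, and the difference from control was 2.21 ± 0.41 (adjusted p = 0.0591). The call was lost in 9 of the 13 other settings too: both smaller pseudocounts, no filter, a common sum, the replicate block, no intensity trend, the 2 groups alone and each kind of library alone, with adjusted p of up to 0.34. In curcumin against control 0 of the 141 tested genes in the 6 lists passed in limma, with 21 higher and 3 lower at an unadjusted p below 0.05 (12.2% of all genes, either direction), and 0 passed with voom, with 25 higher and 3 lower unadjusted (11.1% of all genes).

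**Figure D4:**
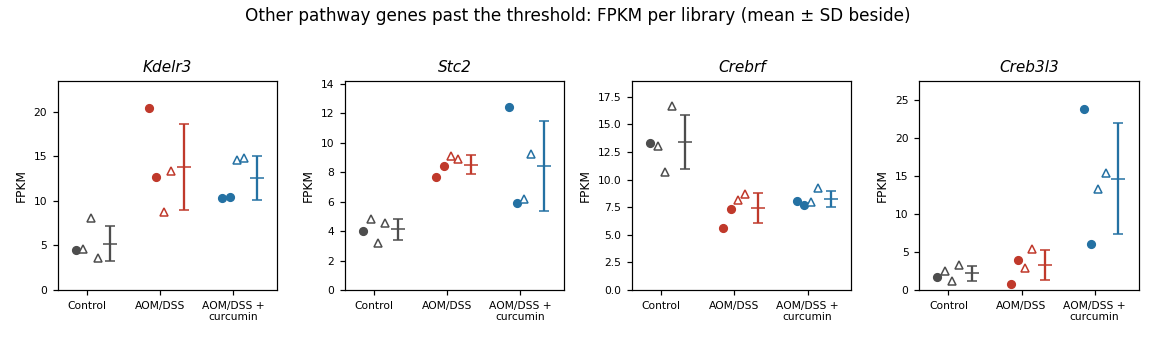
FPKM (vertical axis, from 0) of Kdelr3, Stc2, Crebrf and Creb3l3 in each library by group, with the group mean ± SD (n = 4) beside the points; filled circles are GC-rich and open triangles AT-rich libraries. The treated libraries lie above control for Kdelr3 and Stc2 and below it for Crebrf, and curcumin libraries alone are high for Creb3l3, from 6.10 to 23.9 FPKM.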

How the data were processed

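Messenger RNA was measured in 12 libraries of mouse colon epithelium. The authors deposited FPKM, 1 value per gene and library, for 24391 symbols. The files carry no header, and their names give the unit. Tools in the submitters' processing notes, whose order and role are not given, are featureCounts 1.5.1, TopHat2 2.1.1, Bowtie2 2.2.6, DESeq2 1.14.1, R 3.4.0 and Picard, with the build mm9; the strand setting is not given in the sources used here. The deposited FPKM of all 19233 genes above 0 were whole multiples of a step within a tolerance of 0.001 (100.0% of genes), which gave the reads per gene and library. A gene above 0 in 1 library meets this rule whatever its value and was given 1 read. The share is therefore no check for such genes.

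Groups and replicate numbers were taken from the labels. The test was limma 3.58.1 (R 4.3.3) on log2(FPKM + 1), with the variance trended on level, 1 mean per group, 9 residual degrees of freedom, Benjamini-Hochberg adjustment over 12052 genes with at least 1 FPKM in 4 libraries, and a threshold of 0.05; it was checked on simulated data. The log2(FPKM + 1) scale understates the change of low genes. Tables were read with Python 3.11.15 and pandas 2.3.3.

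The members and lists were chosen with earlier results of these data known. Values of all libraries are given for the 3 highest and 3 lowest differences of each comparison; Hspa5, P4hb and Sec61a1 were added after their values were seen. Other pathway genes are named where past the threshold. A library was GC-rich or AT-rich by the sign of the correlation of its deviations with gene GC content, known for 11969 genes (99.3%) from a later-build annotation, which also gave exon overlaps.

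Alternatives changed the pseudocount (0.1, 0.5), the filter (none, 5 FPKM), the scaling (common sum, quantiles), the variance trend or the groups fitted, added a replicate block or a covariate for library kind, took 1 kind of library alone, used voom on recovered reads, or left out each library.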

Additional observations from a re-analysis of the deposited data

Results flagged for a closer look

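Within groups of 4 libraries, 5 of 114 gene and group combinations had a library set apart from the nearest other by most of the group's range; chance flags about 1 in 20 groups. Manf was 55.98 FPKM and Creld2 39.24 FPKM in curcumin replicate 0, each the highest of its group, with the next libraries at 38.13 and 25.84. Ern1 was lowest in the same library, at 4.863 FPKM, with the next at 5.715. Pdia3 was lowest in curcumin replicate 1, at 209.9 FPKM, with the next at 276.1. Atf4 was lowest in control replicate 0, at 65.31 FPKM, with the next at 75.96.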

How the results depend on the processing

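The count of members past the threshold was 0 in each comparison under all 13 other settings and all 12 left-out libraries. The smallest adjusted p of a member was 0.0628 (P4hb, quantile scaling, AOM/DSS against control), 0.0707 (Herpud1, covariate for library kind, curcumin against AOM/DSS) and 0.108 (Dnajb9, the same covariate, curcumin against control). The members' median difference reversed in AT-rich libraries alone for AOM/DSS against control (-0.046) and for curcumin against AOM/DSS (0.096), and in the latter also without AOM/DSS replicate 1 (0.048); over the left-out libraries the latter median ran from -0.135 to 0.048. In GC-rich libraries alone the medians were 0.49, -0.26 and 0.36 (AOM/DSS against control, curcumin against AOM/DSS, curcumin against control); these fits hold 1 control library, which is assumed to vary like the others. The cause was not tested. Calls over all genes (153, 130 and 17 in the same order) ranged over the other settings from 4 to 238, 1 to 272 and 0 to 40, and over left-out libraries from 53 to 200, 48 to 152 and 4 to 35; voom gave 170, 144 and 27.

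Whether replicate numbers pair the samples is not labelled, and correlations do not settle it. Of 12 same-numbered pairs 6 correlated above 0.1 (from -0.33 to 0.46), and 4 of 12 libraries matched their own number best. Between AOM/DSS and curcumin the correlations were 0.036, 0.35, 0.30 and 0.36 for replicates 0 to 3. Replicate 0 was GC-rich and replicates 2 and 3 AT-rich in all 3 groups. With the replicate number as a block the members called were 0 in each comparison, the calls over all genes 82, 86 and 2, and Kdelr3 (adjusted p = 0.0726), Stc2 (0.0726) and Creb3l3 (0.0772) no longer passed. Few reads limit Trib3, Chac1 and Derl3, with at most 48 reads in a library.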

Other observations

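A pair of genes from the lists lay just beyond the threshold in AOM/DSS against control and were singled out after their values were seen. Fkbp11, an ER prolyl isomerase of secretory cells, was 3.57, 8.29, 10.3 and 5.47 FPKM in control replicates 0 to 3, 19.2, 18.8, 10.9 and 14.47 in AOM/DSS, and 10.2, 13.5, 14.4 and 13.9 in curcumin. All AOM/DSS libraries were above all controls, with a difference of 1.142 ± 0.257 on the log2(FPKM + 1) scale (adjusted p = 0.0506, limma). Nupr1, a small stress-induced nuclear protein, was 61.3, 118, 75.6 and 66.2 FPKM in control, 169, 128, 104 and 230 in AOM/DSS, and 151, 136, 126 and 132 in curcumin. Its difference in AOM/DSS was 0.95 ± 0.24 (adjusted p = 0.0752, limma), and AOM/DSS replicate 2 lay within the control range.

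The cytosolic chaperone gene Hspa1a, induced by heat and other stress outside the ER, was 214 FPKM in AOM/DSS replicate 0 and 33.7 in replicate 3, and at most 3.90 in each of the other libraries. Hspa1b was 290 and 43.1 FPKM in the same libraries and at most 7.63 in the others. In AOM/DSS replicate 1, the highest library of its group for 11 of the 15 folding members, Hspa1a was 1.32 FPKM. The median deviation of the folding members was 0.17, 0.57, -0.31 and 0.14 in AOM/DSS replicates 0 to 3. A relation of Hspa1a and Hspa1b to the folding members was not tested.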
